A study of Oryza sativa with 36 samples.

Results

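The MADS-box transcription factors of rice were followed through chilling and recovery in 2 genotypes. The members were the genes whose symbol or synonym in the annotation joins MADS to a number, and 31 of the 17905 rice genes named on the Affymetrix GeneChip Rice Genome Array met that rule. The members had 39 probe sets in all, and each gene is given here by its probe set with the highest mean intensity; only MADS14, MADS15, MADS23 and MADS27 had more than 1. The leaves came from seedlings of the chilling-tolerant japonica landrace LTH (Li-Jiang-Xin-Tuan-Hei-Gu) and of the chilling-sensitive indica cultivar IR29, grown to the S3 stage (the early leaf stage at which treatment began). In each genotype, seedlings were held at 4 °C for 2, 8, 24 or 48 h, were returned to 29 °C for 24 h after 48 h of chilling (recovery), or stayed at 29 °C (control), which gave 12 groups of 3 biological replicates and 36 arrays. The study's methods describe control leaves taken at every time point, whereas the labels name a single control group for each genotype and do not say at which time it was taken. Every chilled group is set against that group here, so the time of day at harvest and the length of treatment cannot be told apart. Nothing in the labels ties a replicate number to a plate of seedlings.

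MADS-box proteins bind DNA as dimers and higher complexes, and each subfamily is known for a step of plant development. In rice, members of the AP1/FUL and SOC1 subfamilies (MADS14, MADS15, MADS18, MADS50, MADS56) act in the change from leaf-forming to flowering growth. The AP3/PI, AG, SEP and AGL6 subfamilies (MADS2, MADS3, MADS16, MADS58, MADS1, MADS6 and relatives) specify the organs of the floret. SVP-type genes (MADS22, MADS47, MADS55) act on vegetative growth and on meristems, AGL17-type genes (MADS27, MADS57 and relatives) on roots and tillers, and AGL12-type genes (MADS26, MADS33) are studied in roots and in stress. Seedling leaves carry no floral organs.

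The arrays carried leaf RNA by most of the leaf markers examined. The leaf markers RCA, CAB2R, PORB and FBP1 each exceeded 1160 intensity units on every control array, whereas the probe set of RBCS1 stood between 3.93 and 8.74. The summed leaf markers ranged from 13800 to 14630 on LTH control arrays and from 15290 to 15990 on IR29 control arrays. Root markers were also measurable: the sum of 7 (IRT1, LSI1, LSI2, NRT2.3, SCR1, SHR1, WOX5) ranged from 345 to 561.6 in LTH controls and from 387.6 to 556.8 in IR29 controls, and the root-tip marker WOX5 stayed between 5.3 and 8.9. The sum of 11 markers of the shoot meristem and young axis ranged from 1831 to 2075 in LTH controls and from 1439 to 1534 in IR29 controls. For 12 markers of dividing cells the sum ranged from 1154 to 1389 in LTH controls and from 329 to 883.8 in IR29 controls. These were bulk leaves, in which fewer cells of a type and less RNA per cell cannot be told apart. Array medians ranged from 9.81 to 11.16.

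Of the 31 members, 15 had probe sets brighter on average than the median of all values (10.49 intensity units); the other 16 ranged from 1 to 60.35 over the 36 arrays. MADS23, MADS25, MADS30 and MADS34 averaged below the 20th percentile of all values (3.16), where small differences cannot be measured well. Over the 36 arrays, genotype accounted for a median of 10.4% of the variation of a member's log2 intensity, against 4.36% over all 57258 probe sets. The median was 5.61% over named genes, each by its brightest probe set. Condition accounted for a median of 19.1% of a member's variation, against 29.3% over all probe sets and 46.7% over named genes. Genotype accounted for over 50% in MADS56, MADS3, MADS16, MADS18, MADS1, MADS57, MADS2 and MADS55, which is 25.8% of the members. It did so in 5.85% of all probe sets and 7.08% of named genes. Condition did so in MADS14, MADS50 and MADS22, which is 9.68% of the members, beside 25.2% of all probe sets and 45.6% of named genes.

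**Figure D1:**
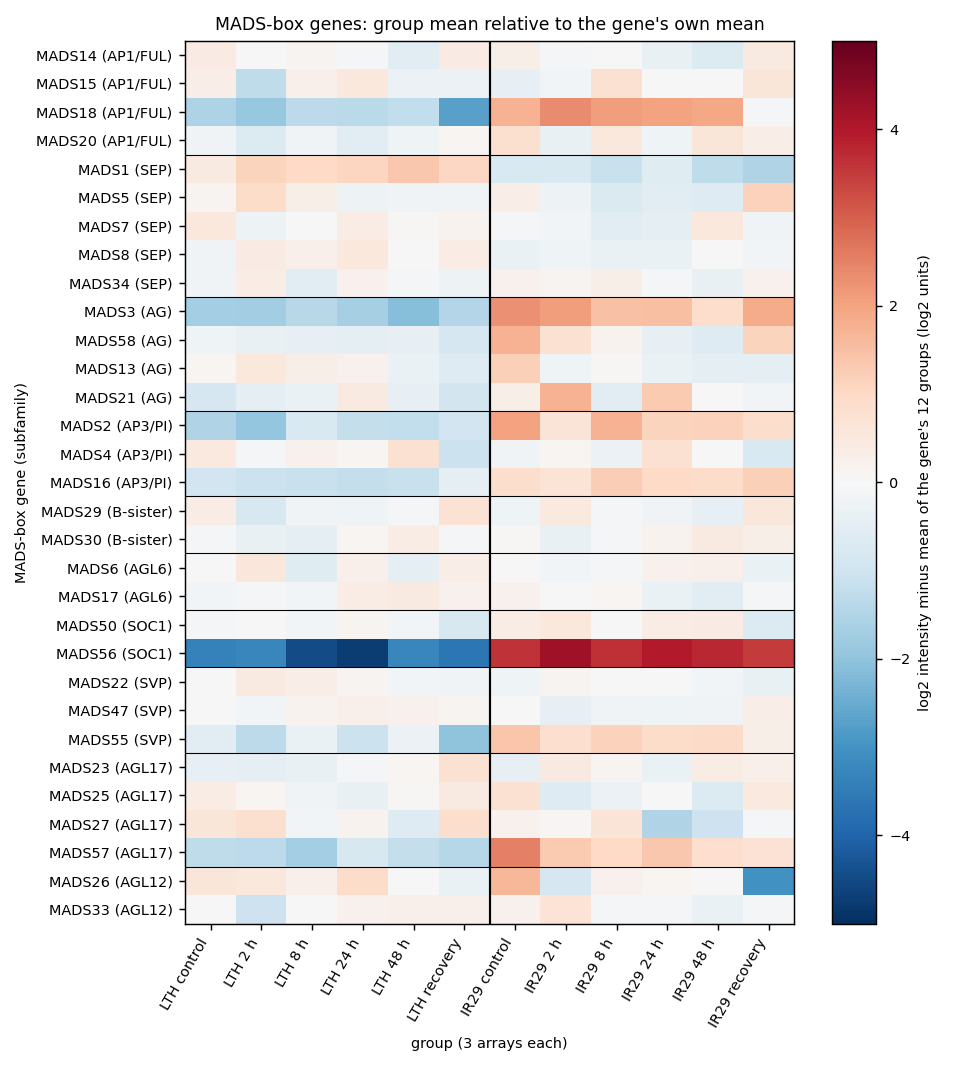
Heat map of the 31 MADS-box genes (rows, by subfamily) in the 12 groups (columns, LTH left of IR29, control through recovery). Colour is the log2 group mean minus the gene's own mean over the 12 groups, so that colours compare groups within a gene and not genes with each other; MADS56, MADS3, MADS18 and MADS57 divide by genotype, and MADS14 turns blue toward 48 h in both.

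The levels of the genotypes were compared within each condition. A gene was called where limma's adjusted p was under 0.05 and the change at least 2-fold. A set of 6 members, MADS2, MADS3, MADS16, MADS18, MADS56 and MADS57, was lower in LTH than in IR29 in all 6 conditions. This is 19.4% of the members, where 0.905% of all probe sets and 0.922% of named genes were lower in all 6. No member was higher in LTH in all 6 conditions, as 1.92% of all probe sets were. In the controls 8 members were lower in LTH (3.44% of all probe sets) and 0 were higher (4.07%); 10 members in all had an unadjusted p under 0.05 there, and the methods' t-test called 9 after Benjamini-Hochberg adjustment. At 2 h, 9 members were lower and 1 higher (4.34% and 6.88% of all probe sets); at 8 h, 7 and 1 (4.47% and 6.74%); at 24 h, 7 and 2 (6.5% and 8.21%). At 48 h, 6 were lower and 1 higher (6.5% and 9.29%), and in recovery 8 and 2 (7.96% and 11%). By the study's methods the array covers far more japonica than indica transcripts, and LTH is japonica and IR29 indica. Probes may therefore match one genotype better than the other, and the part of probe mismatch in these differences was not tested.

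MADS56, a SOC1-type gene known in rice as a repressor of flowering in long days, differed the most. Its control intensities were 2.3, 12.28 and 15 in LTH, against 930.83, 886.14 and 1081.98 in IR29. Over all 6 conditions its LTH arrays lay between 1.76 and 34.75 and its IR29 arrays between 769.03 and 1689.8, so the genotypes did not overlap. The difference was -7.00 on the log2 scale in the controls (SE 0.771, 128-fold, adjusted p = 4.3e-08), and -8.70 at 24 h (415-fold, adjusted p = 4.4e-10). The LTH arrays had a median of 4.26, near the 20th percentile of all values (3.16), so the folds are set against dim values, and with all values raised to a floor of 3.16 the same differences were -6.85 and -8.34. Within IR29, MADS56 averaged 966 ± 103 in controls, 1460 ± 217 at 2 h and 888 ± 59.8 in recovery (SD, n = 3 each), and no change from control was called in either genotype. Its relative MADS50, which promotes flowering in rice, was not called between the genotypes in any condition.

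MADS18, an AP1/FUL-type gene that speeds flowering when overexpressed in rice, stood at 15.77, 29.73 and 24.68 in LTH controls, against 198.81, 213.53 and 258.57 in IR29 controls. Every LTH array (8.65 to 50.78) was below every IR29 array (58.33 to 383.03). The control difference was -3.30 (SE 0.328, 9.83-fold, adjusted p = 5.8e-09), and the differences in the other conditions ran between -4.28 at 2 h and -2.63 in recovery. The brightest probe sets of the other AP1/FUL members, MADS14, MADS15 and MADS20, were not called between genotypes; a dimmer MADS14 set was higher in LTH at 48 h (1.66, adjusted p = 0.047).

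Class B floral genes of the AP3/PI type differed in the same direction. MADS16, the AP3-type gene needed for lodicules and stamens, measured 87.67, 90.05 and 83.45 in LTH controls and 299.41, 321.22 and 303.63 in IR29 controls. The difference was -1.82 (SE 0.263, 3.54-fold, adjusted p = 5.5e-06), it stayed between -2.34 and -1.63 over the 6 conditions, and the LTH arrays (at most 170.23) did not reach the IR29 arrays (at least 233.29). MADS2, a PI-type partner of MADS16, measured 8.81, 9.2 and 5.23 in LTH controls and 77.6, 98.99 and 86.66 in IR29 controls, a difference of -3.54 (SE 0.543, 11.6-fold, adjusted p = 1.5e-05). Its difference was -1.82 in recovery (adjusted p = 0.012), which was lost without LTH recovery replicate 1 (-1.57, adjusted p = 0.067). The other PI-type gene, MADS4, was not called between genotypes.

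Among the AG-type genes, which specify stamens and carpels, MADS3 and MADS58 were lower in LTH controls. MADS3 measured 3.1, 2.26 and 1.81 in LTH and 39.61, 36.23 and 36.86 in IR29, a difference of -4.01 (SE 0.428, 16.1-fold, adjusted p = 2.4e-08); with the floor of 3.16 it was -3.57. All LTH arrays of MADS3 (at most 4.45) were below all IR29 arrays (at least 8.3). MADS58 measured 7.3, 7.75 and 9.43 in LTH and 30.56, 33.57 and 30.99 in IR29, a difference of -1.97 (SE 0.315, 3.91-fold, adjusted p = 2.9e-05). The MADS58 difference was -1.12 at 2 h (adjusted p = 0.012, and 0.054 without LTH 2 h replicate 3), then -0.59, -0.05 and 0.24 at 8, 24 and 48 h, and -1.97 again in recovery.

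MADS57 and MADS55 were the vegetative genes lower in LTH. MADS57, an AGL17-type gene that restrains D14 and so acts on tillering in rice, measured 8.01, 9.07 and 7.46 in LTH controls and 101.61, 101.83 and 142.34 in IR29 controls. The control difference was -3.80 (SE 0.46, 14-fold, adjusted p = 2.5e-07), and it lay between -2.68 and -2.04 in the other conditions. MADS55, an SVP-type gene, measured 65.3, 86 and 56.01 in LTH controls and 231.39, 277.62 and 284.38 in IR29 controls, a difference of -1.95 (SE 0.489, 3.87-fold, adjusted p = 0.0068). MADS55 was lower in LTH in every condition but 48 h (-1.28, adjusted p = 0.059). At 8 h the call (-1.47, adjusted p = 0.037) was lost without LTH replicate 1 or 2 or any 1 IR29 replicate, and was -2.02 without LTH replicate 3. The spread of MADS55 was wide in LTH, where it measured 51.13, 60.01 and 171.94 at 8 h and 28.39, 172.41 and 23.12 at 24 h. The summed markers of dividing cells stood high on the same arrays, at 594, 421.9 and 2089 at 8 h and at 377.6, 1337 and 226.2 at 24 h; MADS2 also reached 29.83 on LTH 24 h replicate 2. The part of dividing cells in these values was not tested; without LTH 24 h replicate 2 the 24 h differences were -2.88 for MADS55 and -3.14 for MADS2, against -1.97 and -2.32 with it, and neither 24 h call held in a fit of only the groups compared.

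MADS1 went the other way. This SEP-type gene fixes the identity of the floret and its lemma and palea. It measured 16.41, 13.32 and 15.31 in LTH controls and 6.31, 7.3 and 5.76 in IR29 controls, and every LTH array (13.32 to 52.1) was above every IR29 array (2.39 to 9.32). The control difference of 1.22 missed the threshold (adjusted p = 0.053). MADS1 was called higher in LTH at 2 h (1.84, SE 0.404, adjusted p = 0.0012), 8 h (2.09), 24 h (1.67), 48 h (2.60, adjusted p = 1.1e-05) and in recovery (2.54). MADS33, of the AGL12 type, was called lower in LTH at 2 h only: it measured 5.15, 1 and 3 in LTH and 8.24, 7.04 and 9.7 in IR29 (-1.73, adjusted p = 0.024), all below the median of all values, and the call was lost without LTH replicate 2 (-1.07) or without IR29 replicate 1 or 3.

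**Figure D2:**
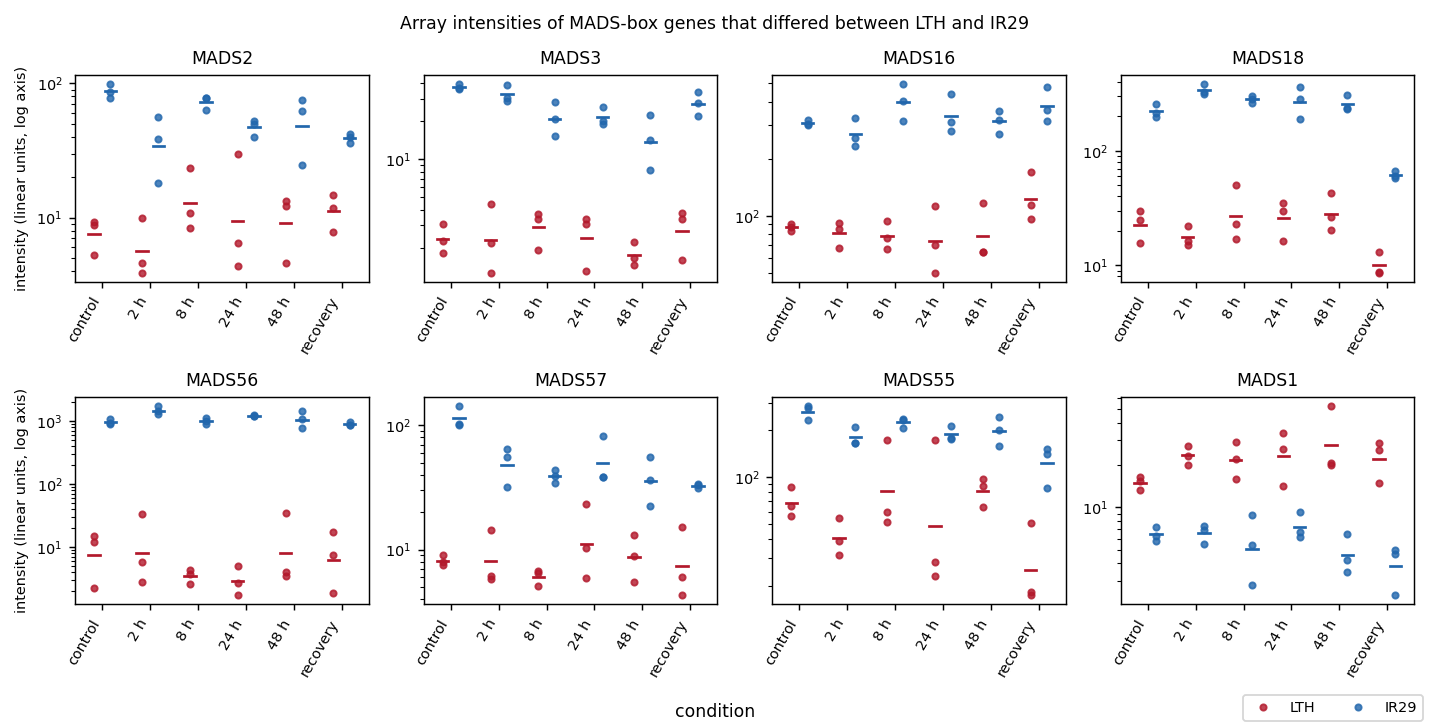
Intensity on each of the 36 arrays (log axis) for 8 MADS-box genes that were called between the genotypes, LTH left of IR29, by condition; bars are the means of the log2 values. LTH lies below IR29 in MADS3, MADS16, MADS18 and MADS56 without overlap, and above it in MADS1.

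The response to chilling was the change from the control of the same genotype. No member was called higher than its control at any chilling time in either genotype. Uncalled rises without overlap of arrays included MADS15 in IR29 at 8 h (9.51, 7.46 and 7.54, against 4.18, 3.24 and 3.49 in controls). The other MADS15 probe sets gave changes of -0.09, 0.17 and -0.09 there. MADS21 in IR29 at 2 h measured 16.48, 20.22 and 12.84, against 3.91, 6.03 and 9.08 in controls. Uncalled falls without overlap included MADS2 in IR29 at 2 h (56.15, 38.59 and 18.16, against 77.6, 98.99 and 86.66 in controls). MADS55 at 2 h also lay below its controls, in IR29 (166.17 to 209.8, controls 231.39 to 284.38) and in LTH (31.39 to 54.98, controls 56.01 to 86). In LTH, 2 members were lower at any chilling time, 6.45% of the members, where 32.1% of all probe sets and 46.2% of named genes were called in either direction. In IR29, 6 members were lower at any chilling time, 19.4%, where 33.7% of all probe sets and 46.5% of named genes were called. The members thus stood below the share of the array in both genotypes. By time, LTH had 1 lower member at 2 h (6.62% of all probe sets were lower), 0 at 8 and 24 h (6.5% and 10.9%) and 1 at 48 h (13.1%); 1 member had an unadjusted p under 0.05 at 8 h and 1 at 24 h, and the methods' t-test called 1 member over all LTH chilling times after adjustment. IR29 had 2 lower members at 2 h (9.49% of all probe sets), 2 at 8 h (7.98%), 3 at 24 h (11.4%) and 6 at 48 h (13.8%). Of all probe sets, 6.99%, 7.26%, 9.46% and 12.3% were higher at the 4 times in LTH and 7.05%, 7.24%, 8.54% and 10.6% in IR29, where no member was.

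MADS58 fell in IR29 from 8 h of chilling on. It measured 30.56, 33.57 and 30.99 in IR29 controls, 17.25, 13.01 and 17.87 at 2 h, 12.53, 7.4 and 12.59 at 8 h, 8.37, 7.09 and 5.82 at 24 h, and 8.64, 5.35 and 4.59 at 48 h. Every chilled array was below every control array. The changes were -1.59 at 8 h (SE 0.315, adjusted p = 0.00031), -2.18 at 24 h (adjusted p = 2.8e-06) and -2.41 at 48 h (adjusted p = 3.7e-07), while that at 2 h (-0.996, adjusted p = 0.019) was just under 2-fold. After recovery the IR29 arrays measured 30.34, 16.98 and 16.1, 1.76 above 48 h (adjusted p = 3.3e-05). In LTH, where MADS58 began at 8.16 on average, every array of the series lay between 4.04 and 9.43 and no change from control was called.

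The difference between the genotypes' MADS58 responses was tested as an interaction, the LTH change minus the IR29 change. Over the 5 interactions tested, 2 members were called, MADS58 and MADS26, which is 6.45% of the members, where 17.7% of all probe sets were called in at least 1. It was 1.92 at 24 h (SE 0.445, adjusted p = 0.0062) and 2.21 at 48 h (adjusted p = 0.0012), and was not called at 2 h (0.85, adjusted p = 0.44) or 8 h (1.37, adjusted p = 0.093). MADS58 was the only member called at these times, where 6.11% of all probe sets at 24 h and 8.71% at 48 h had a called interaction. No member was called in the interaction at 2 h (4 with an unadjusted p under 0.05, 1.59% of all probe sets called) or at 8 h (1, and 2.85%). The MADS58 levels in LTH were below the median of all values from the start, and how far that limits a measurable fall there was not tested.

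MADS57 fell in IR29 to a lower and nearly level range. It measured 64.4, 55.23 and 31.65 at 2 h, 34.41, 43.48 and 39.3 at 8 h, 82.18, 38.6 and 38.44 at 24 h, and 36.13, 55.39 and 22.4 at 48 h, all below the control arrays (101.61 to 142.34). The change was -1.55 at 8 h (SE 0.46, adjusted p = 0.013) and -1.68 at 48 h (adjusted p = 0.0047). Without IR29 control replicate 3 the 8 h change was -1.39 (adjusted p = 0.066). The 2 h call (-1.24, adjusted p = 0.049) was lost in 24 of the 36 fits that left out 1 array, in which the change ran from -1.44 to -0.93, and with quantile normalization, median centring, the floor of 3.16 or no intensity trend; the 24 h change of -1.20 was not called (adjusted p = 0.051). In LTH the changes of MADS57 lay between -0.43 and 0.46 at the 4 chilling times and none was called. The interaction for MADS57 was largest at 48 h (1.77, 95% confidence interval 0.435 to 3.096) and was not called (adjusted p = 0.084). Listed partners of MADS57 in chilling and tillering were examined too. TB1, WRKY94 and D53 were not among the measured genes, which left D14 and D3. D14, the strigolactone receptor, averaged 2310 ± 216 in LTH controls and 2730 ± 176 in IR29 controls (SD, n = 3) and was not called at any chilling time. D3, the F-box protein of strigolactone signalling, averaged 97.5 in LTH at 48 h against 26.9 in LTH controls (1.79, adjusted p = 1.4e-07), and 85.6 in IR29 at 48 h against 42.4 in IR29 controls (1.01, adjusted p = 0.00058). Of all probe sets, 12.3% in LTH and 10.6% in IR29 were called higher at 48 h.

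The root-associated genes MADS26 and MADS27 were lower at some chilling times. MADS26, an AGL12-type gene that limits drought and disease resistance in rice, measured 14.92, 18.52 and 11.68 in IR29 at 2 h, against 65.71, 108.34 and 79.14 in IR29 controls (-2.48, SE 0.532, adjusted p = 0.00068). The changes were -1.43 at 8 h (not called, adjusted p = 0.051), -1.55 at 24 h (adjusted p = 0.028) and -1.64 at 48 h (adjusted p = 0.017). The 24 h call was lost without IR29 control replicate 2 (-1.35) or 3 (-1.58) or 24 h replicate 3 (-1.23), or with quantile normalization, and the 48 h call without control replicate 2 (-1.44) or 48 h replicate 2 (-1.49) or 3 (-1.46). In LTH no change of MADS26 from control was called.

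MADS27, an AGL17-type gene of nitrate response and root growth in rice, measured 6.28, 3.59 and 4.19 in IR29 at 24 h, against 13.3, 11.8 and 21.33 in IR29 controls (-1.72, SE 0.485, adjusted p = 0.0073). At 48 h its IR29 arrays measured 4.15, 17.76 and 3.36 (-1.25, adjusted p = 0.047), and the change was -2.002 without 48 h replicate 2 and -0.80 without replicate 3. In LTH it measured 7.02, 8.18 and 9.83 at 48 h, against 18.64, 18.72 and 21.17 in controls (-1.24, adjusted p = 0.049). Both 48 h calls rested on a narrow margin: the IR29 call was lost in 23 of 36 fits that left out 1 array and the LTH call in 22, where the LTH change ran from -1.36 to -1.12, and both were lost with the floor of 3.16. MADS27 was higher in LTH than in IR29 at 24 h (1.69, adjusted p = 0.011), which was lost without LTH 24 h replicate 1 (1.37) or IR29 24 h replicate 2 (1.52). The other MADS27 probe set gave smaller changes (-0.50 in IR29 at 24 h, -0.60 in IR29 and -0.37 in LTH at 48 h) and none was called.

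The summed root markers ranged from 127.6 to 302.1 in IR29 at 2 h, from 104.3 to 159.7 at 24 h and from 110.3 to 686.2 at 48 h, against 387.6 to 556.8 in IR29 controls. Of the 7, 1 was called lower at 2 h, 4 at 24 h and 2 at 48 h. In LTH at 48 h the root sum ranged from 191 to 266.2, against 345 to 561.6 in LTH controls, and 0 of the 7 were called lower. On IR29 8 h replicate 2 the root sum was 1106, MADS26 was 90.35 and MADS27 was 51.75, where the other 8 h replicates had root sums of 149.7 and 330.5, MADS26 at 16.48 and 19.21, and MADS27 at 13.13 and 12.41. On IR29 48 h replicate 2 the root sum was 686.2, above every IR29 control array. MADS27 was 17.76 there, the highest of its group, while MADS26 was 21.49, against 42.24 and 20.55 on the other 48 h replicates with root sums of 110.3 and 129.3. The part of root RNA in the MADS26 and MADS27 values was not tested.

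**Figure D3:**
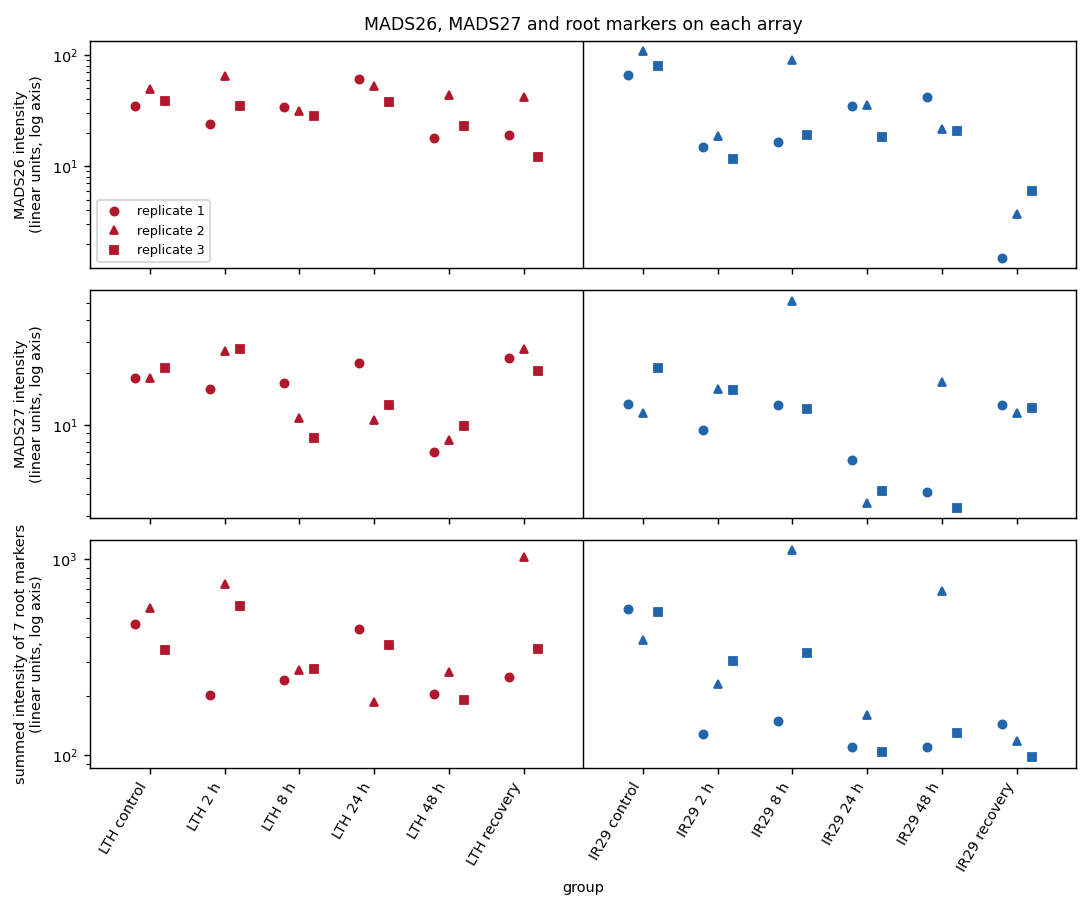
MADS26, MADS27 and the sum of 7 root markers (intensity, log axis) on each array, LTH left of IR29, by condition. The replicate of IR29 at 8 h with a root sum of 1106 also carried the highest MADS27 value, and all 3 IR29 recovery arrays were low in both MADS26 and the root sum.

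MADS3, MADS13 and MADS15 were called lower at a single chilling time. The IR29 arrays of MADS3 also lay below every control array at 8 h (28.42, 15.44 and 21.04), without a call. So did those at 24 h (19.1, 25.89 and 20.17), and those of MADS13 at 24 h (2.2, 2.99 and 3.88). MADS3 measured 14.24, 8.3 and 22.58 in IR29 at 48 h, against 39.61, 36.23 and 36.86 in IR29 controls (-1.44, adjusted p = 0.0093); without IR29 48 h replicate 2 the change was -1.07 (adjusted p = 0.082). MADS13, an AG-type gene of ovule identity, measured 2.74, 5.72 and 1.26 in IR29 at 48 h, against 9.63, 5.36 and 12.27 in IR29 controls (-1.67, adjusted p = 0.041). The groups overlapped, and the call was lost without IR29 control replicate 1 or 3 or 48 h replicate 1 or 3. MADS15, an AP1/FUL gene of inflorescence meristems, measured 1.84, 1 and 4.37 in LTH at 2 h, against 7.59, 6.99 and 4.01 in LTH controls (-1.58, adjusted p = 0.037). The groups overlapped, the call was lost without LTH control replicate 1 or 2 or 2 h replicate 1 or 2 or with the floor of 3.16, and the other MADS15 probe sets gave 0.03, -1.38 and 0.93, none called (adjusted p = 0.98, 0.11 and 0.12).

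By its brightest probe set, MADS14, the AP1/FUL gene that acts with MADS15 in the inflorescence meristem, moved alike in both genotypes but short of 2-fold. It averaged 38.1 in LTH at 48 h against 73 in LTH controls (-0.94, 95% confidence interval -1.36 to -0.53, adjusted p = 0.00042). In IR29 it averaged 34.8 at 48 h against 66.6 in controls (-0.95, adjusted p = 0.00042). The interaction was 0.00 (95% confidence interval -0.58 to 0.59). The dimmer MADS14 probe sets did not share this fall in LTH, with changes at 48 h of 0.76, 0.34 and 0.002. In IR29 they gave -0.03, -1.28 and -0.11 at 48 h. None of these changes was called.

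**Figure D4:**
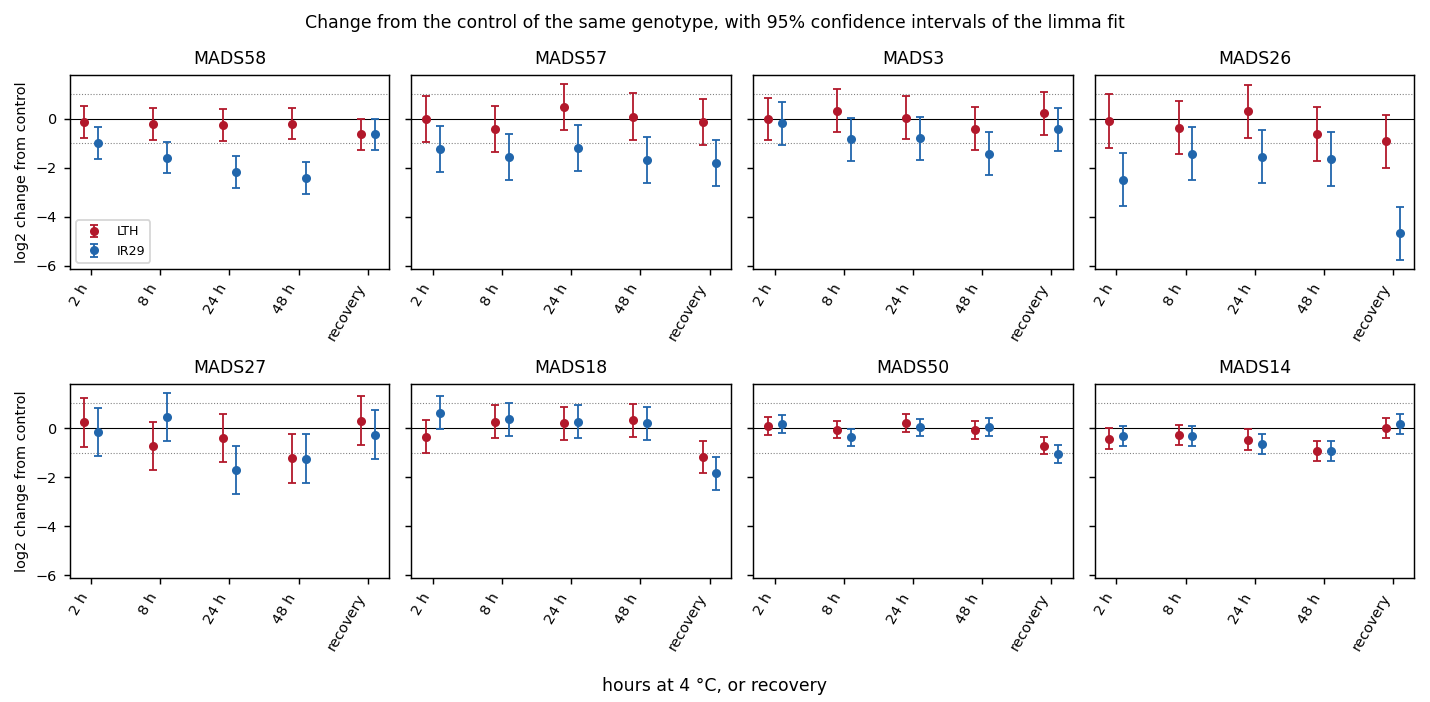
Log2 change from the control of the same genotype (points) with its 95% confidence interval (bars) for MADS58, MADS57, MADS3, MADS26, MADS27, MADS18, MADS50 and MADS14 at 2, 8, 24 and 48 h of chilling and in recovery, LTH left of IR29; dotted lines mark 2-fold. MADS58 falls to -2.41 in IR29 at 48 h and is near 0 in LTH; MADS26 reaches -4.68 in IR29 after recovery.

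After 24 h of recovery, 1 member was lower than its control in LTH, 3.23% of the members, where 1.22% of all probe sets were lower and 2.56% were called in either direction. In IR29, 4 members were lower, 12.9%, where 11.7% of all probe sets were lower and 20.7% were called. Recovered IR29 arrays of MADS2 (35.79 to 42.07) and MADS55 (85.52 to 150.8) also lay below their control arrays, without a call. Those controls ranged from 77.6 to 98.99 for MADS2 and from 231.39 to 284.38 for MADS55. Uncalled falls without overlap in recovered LTH included MADS55 (17.48 to 50.59, controls 56.01 to 86). MADS4 was another (3.35 to 4.29, controls 5.71 to 17.97). Uncalled rises without overlap in recovered LTH included MADS16 (95.85 to 170.23, controls 83.45 to 90.05). No member was called higher than its control (1.35% of all probe sets in LTH and 8.94% in IR29), though the next brightest MADS15 set was higher in recovered IR29 than in control (2.03, adjusted p = 0.014). Leaf markers differed in the same samples: their sum ranged from 13320 to 14530 in recovered LTH (13800 to 14630 in LTH controls) and from 5010 to 6703 in recovered IR29 (15290 to 15990 in IR29 controls), and their part in the IR29 values was not tested. The meristem sum ranged from 1537 to 1600 in recovered LTH and from 937.6 to 1094 in recovered IR29. The sum for dividing cells ranged from 345.2 to 591.7 in recovered LTH and from 263.7 to 315.9 in recovered IR29. The part of these cells was not tested either.

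MADS18 was called lower after recovery in both genotypes. It measured 8.81, 13.03 and 8.65 in recovered LTH, against 15.77, 29.73 and 24.68 in LTH controls (-1.18, SE 0.328, adjusted p = 0.039). In recovered IR29 it measured 60.77, 66.66 and 58.33, against 198.81, 213.53 and 258.57 in IR29 controls (-1.85, adjusted p = 5.3e-05). Recovered and control arrays did not overlap in either genotype. The LTH call was lost without LTH control replicate 2 (-0.98, adjusted p = 0.25) or 3 (-1.12), or recovery replicate 1 (-1.09) or 3 (-1.08), without the intensity trend, and in a fit of only the groups compared. No change of MADS18 was called during chilling, and it averaged 258 ± 41.6 in IR29 at 48 h (SD, n = 3). Recovery was lower than 48 h in each genotype, with differences of -1.50 for LTH (adjusted p = 0.00047) and -2.05 for IR29 (adjusted p = 7e-06). The interaction was not called (0.67, 95% confidence interval -0.285 to 1.615, adjusted p = 0.46).

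MADS50, the SOC1-type promoter of flowering, measured 93.3, 76.3 and 99.18 in recovered LTH, against 119.95, 180.51 and 144.15 in LTH controls. The LTH change of -0.72 (adjusted p = 0.017) was under 2-fold. In recovered IR29 it measured 93.91, 94.78 and 95.92, against 164.95, 197.53 and 235.74 in IR29 controls (-1.06, adjusted p = 2.2e-05), and without IR29 control replicate 3 this was -0.93 and below 2-fold, as it also was with quantile normalization. Recovered arrays were below control arrays in both genotypes.

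MADS26 showed the greatest fall from control of any member after recovery. It measured 1.49, 3.75 and 5.97 in recovered IR29, against 65.71, 108.34 and 79.14 in IR29 controls (-4.68, SE 0.532, 25.7-fold, adjusted p = 3.9e-08), and its difference from IR29 at 48 h was -3.04 (adjusted p = 2.5e-05). In recovered LTH it measured 18.98, 41.63 and 12.17, against 34.83, 49.26 and 38.22 in LTH controls (-0.92, adjusted p = 0.49). The recovered IR29 values were near the 20th percentile of all values, and with the floor of 3.16 the change from control was -4.32. Its interaction in recovery was 3.76 (adjusted p = 8e-04; 3.40 with the floor), the only called one among the members there, where 9.01% of all probe sets were called. MADS26 was higher in recovered LTH than in recovered IR29 by 2.72 (adjusted p = 0.00019). The summed root markers ranged from 97.55 to 144.3 in recovered IR29, with 5 of the 7 called lower than control, and from 249.7 to 1024 in recovered LTH, where replicate 2 held both the 1024 and the MADS26 value of 41.63. In recovered LTH 1 of the 7 was called lower. The median log2 change of the root markers from control was -0.72 in LTH and -1.86 in IR29. The part of root RNA in these values was not tested.

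MADS57 stayed low in recovered IR29 at 31.34, 33.5 and 32.91 (-1.81 from control, adjusted p = 0.0031), with an interaction of 1.65 that was not called (adjusted p = 0.11). MADS27, in contrast, measured 24.22, 27.33 and 20.53 in recovered LTH, 1.53 above 48 h (adjusted p = 0.014, and 0.052 without LTH 48 h replicate 1). The other MADS27 probe set gave 0.91 there (adjusted p = 0.21).

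Recovery was also set against 48 h of chilling. In LTH 1 member was higher and 3 were lower (13.8% and 12.3% of all probe sets); in IR29 3 were higher and 3 lower (14.8% and 14.5%). MADS18 was lower in both. In LTH the others were MADS27, which was higher, and MADS4 and MADS55, which were lower. MADS4, a PI-type gene, measured 3.7, 3.35 and 4.29 in recovered LTH, against 21.27, 19.73 and 5.9 at 48 h (-1.85, adjusted p = 0.0026), and MADS55 measured 17.48, 50.59 and 18.32 in recovered LTH (-1.69 from 48 h, adjusted p = 0.0068). In IR29 MADS26 and MADS50 were lower (MADS50 by -1.09, and by -0.94 without IR29 48 h replicate 2, with the call also lost under median centring), and MADS58, MADS14 and MADS5 were higher. MADS14 was higher by 1.12 in IR29 (adjusted p = 3.9e-05), and its other probe sets gave -0.51, 1.37 and 0.43, none called (adjusted p = 0.52, 0.078 and 0.42). The next brightest MADS15 set was higher in recovery than at 48 h in LTH (1.79, adjusted p = 0.025) and in IR29 (2.20, adjusted p = 0.0055). It measured 25, 11.54 and 1.69 in recovered LTH, overlapping 1.9, 3.8 and 1.63 at 48 h. In IR29 it measured 3, 8.39 and 6.26, against 1, 1.62 and 1 at 48 h, all 48 h values under the 20th percentile (3.16). The dimmer MADS15 sets gave 0.84 and -0.315 in LTH and 0.88 and 0.17 in IR29, none called. MADS5, a SEP-type gene, measured 60.35, 2.88 and 2.48 in recovered IR29, against 1.56, 2.21 and 2.99 at 48 h (1.80, adjusted p = 0.035). The MADS5 call rested on recovery replicate 1, without which the difference was 0.30, and it was lost too without 48 h replicate 1 or 2 or with the floor of 3.16.

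**Figure D5:**
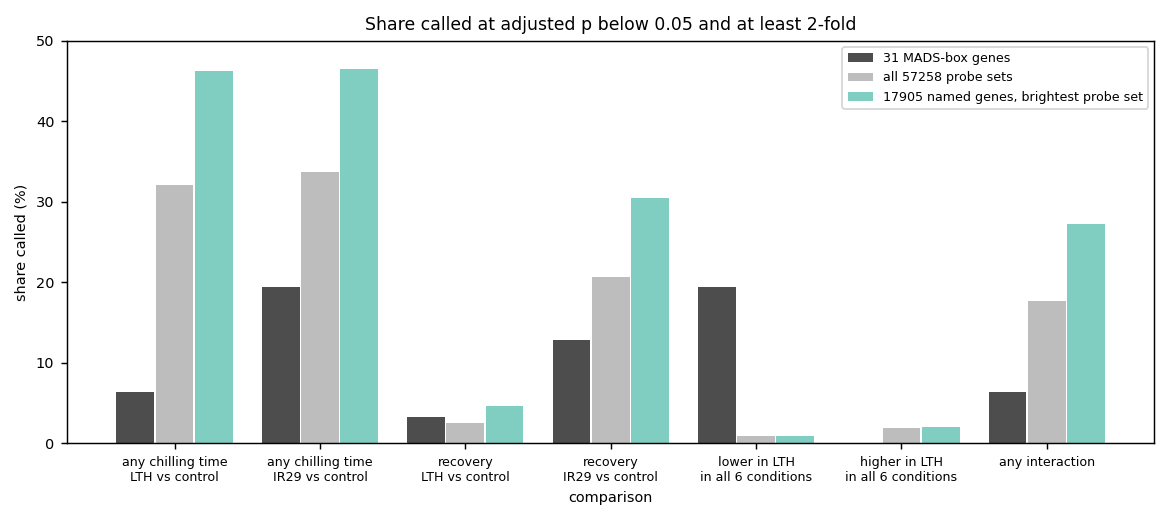
Share (%) of the 31 MADS-box genes, of all 57258 probe sets and of 17905 named genes that were called in each kind of comparison. The members exceed the array where genes were lower in LTH in all 6 conditions (19.4% and 0.905% of all probe sets) and fall below it for any chilling time (6.45% and 32.1% in LTH).

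A set of 13 members was called in none of the 23 comparisons (41.9% of the members, where 37% of all probe sets and 20.9% of named genes were called in none). They were the SEP-type MADS7, MADS8 and MADS34, the AGL6-type MADS6 and MADS17, MADS20 of the AP1/FUL type, the ovule gene MADS21, the AGL17-type MADS23 and MADS25, the B-sister genes MADS29 and MADS30, and the SVP-type MADS22 and MADS47. All but MADS22 and MADS47, 11 members, measured between 1 and 23.11 on every array, and a change at such intensities could be missed. MADS22 and MADS47 had bright probe sets instead. MADS22 averaged 906 ± 119 in LTH controls and 778 ± 71.2 in IR29 controls (SD, n = 3) and lay between 679.89 and 1282.86 on all 36 arrays. At 2 h its changes were 0.45 in LTH (95% confidence interval 0.19 to 0.71) and 0.38 in IR29 (0.12 to 0.64), with adjusted p of 0.012 and 0.03 but under 2-fold. MADS47 averaged 149 ± 10.2 in LTH controls and 154 ± 13.2 in IR29 controls and lay between 94.18 and 210.6.

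In the reference annotation MADS14 lies next to MADS34, and MADS33 next to MADS13. Neither pair was called in the same comparison.

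Flowering genes around the MADS-box members were examined too. Of 17 measured genes of the photoperiod and florigen pathway, 3 were higher and 1 lower in LTH at 2 h (6.99% and 6.62% of all probe sets), 2 and 1 at 8 h (7.26% and 6.5%), 2 and 1 at 24 h (9.46% and 10.9%), 2 and 2 at 48 h (12.3% and 13.1%), and 0 and 0 in recovery (1.35% and 1.22%). In IR29 the counts were 2 and 3 at 2 h (7.05% and 9.49%), 4 and 3 at 8 h (7.24% and 7.98%), 2 and 2 at 24 h (8.54% and 11.4%), 2 and 4 at 48 h (10.6% and 13.8%), and 1 and 5 in recovery (8.94% and 11.7%). Between the controls 0 were higher and 1 lower in LTH (4.07% and 3.44% of all probe sets). Of the 17, 4 had a called interaction in recovery, where 9.01% of all probe sets had one. DTH8, a NF-Y subunit that delays flowering in long days, measured 25.99, 31.01 and 31.57 in recovered LTH, against 37.2, 20.79 and 27.87 in LTH controls (0.08). In recovered IR29 it measured 2.81, 1.65 and 2.75, against 68.55, 61.58 and 66.72 in IR29 controls (-4.81, adjusted p = 3.9e-10), and the interaction was 4.89 (adjusted p = 1.1e-06). The recovered IR29 values were all under the 20th percentile of all values, and with the floor of 3.16, a setting added after the data were seen, the change was -4.38 and the interaction 4.45. At 48 h DTH8 had fallen in both genotypes, with changes of -3.45 in LTH and -4.39 in IR29.

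The other 3 were PRR37, a clock-type pseudo-response regulator (interaction 2.33, adjusted p = 1.4e-06), HD1, the rice counterpart of CONSTANS (2.65, adjusted p = 0.0046), and MFT1, of the florigen family (1.90, adjusted p = 0.00026). HD1 was also lower in LTH than in IR29 controls (-2.48, adjusted p = 0.00016; -2.11 with the same floor). HD3A, the florigen itself, stood between 3.07 and 6.21 in controls of both genotypes and was not called in chilling or recovery. PHYB, a red-light receptor, averaged 261 in recovered LTH against 272 in LTH controls, and 238 in recovered IR29 against 307 in IR29 controls, and was not called.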

How the data were processed

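Leaf RNA of 36 samples was hybridised to the Affymetrix GeneChip Rice Genome Array. The deposited values are linear intensities of 57258 probe sets, which the authors scanned and extracted with GCOS and normalized with dChip. They were not renormalized. Values were raised to at least 1 and taken to log2, and 1 limma model of the 12 group means (limma 3.58.1 in R 4.3.3, intensity trend) was fitted to all probe sets. Its 23 comparisons were adjusted by Benjamini-Hochberg over all probe sets. A call needed an adjusted p under 0.05 and at least 2-fold; the fit was tested on simulated data. Genes came from the platform's annotation: 22436 probe sets had 1 gene, 95 several and 34727 none, with synonyms updated by gene ID to RefSeq assembly ASM3414082v1. MADS18 also carries the synonyms MADS2 and MADS28 there.

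The members, subfamilies, pathway and marker lists were chosen with earlier results of these data known. Every member called in a comparison was named with its values, and the others with their range. From the flowering and partner lists at most 4 called and 2 uncalled genes were named. P-values measure the spread between the 3 samples of a group, pooled for each probe set over all 12 groups. That spread is also moderated by limma across probe sets of like intensity. A wide spread in some groups therefore enters comparisons between other groups too. Having 3 samples a group limits precision. Alternatives were other normalizations, floors, filters, models, probe sets and the leaving out of each array. No sequence was used here.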

Additional observations from a re-analysis of the deposited data

Results flagged for a closer look

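A set of 3 results was marked because the genotypes' responses differed by a test of the difference itself, the LTH change from control minus the IR29 change. For MADS58 the difference was 1.92 at 24 h of chilling (adjusted p = 0.0062) and 2.21 at 48 h (adjusted p = 0.0012), with the IR29 arrays lower than their controls and the LTH arrays between 4.04 and 9.43 throughout. For MADS26 the difference was 3.76 in recovery (adjusted p = 8e-04; 3.40 with a floor of 3.16), where the IR29 arrays measured 1.49, 3.75 and 5.97.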

How the results depend on the processing

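The counts of called members were recomputed: 2 at any chilling time in LTH, 6 in IR29, 1 in recovery in LTH, 4 in IR29, 8 between the controls and 2 in the interactions. For LTH chilling the count was 1 with quantile normalization, with the 40% dimmest left out, without the intensity trend and by the methods' t-test after adjustment, 0 with a floor at the 20th percentile and with the next brightest probe set, and 4 with no minimum fold change. For LTH recovery it was 2 with the floor, with the dimmest left out and with no minimum fold change, 0 without the trend, in the fit of only the groups compared and by the adjusted t-test, and 3 by the unadjusted t-test. The interactions gave 4 with the floor and with only the groups compared. IR29 recovery gave 7 with only the groups compared and by the unadjusted t-test, and IR29 chilling 9 and 11. Leaving out 1 array gave 0 to 4, 5 to 8, 0 to 2, 3 to 6, 8 to 9 and 2 to 4 in the same order. LTH chilling gave 0 without LTH control replicate 2 or LTH 2 h replicate 2 and 4 without LTH 24 h replicate 2, which also gave 4 interactions. The 2 results that turned were MADS14 in IR29 recovery against 48 h (-0.51) and MADS15 in LTH at 2 h (0.034), both with the next brightest probe set. Of the 85 calls of members, 66 kept their direction and side of the threshold whichever array was left out. The methods' t-test, which gives no interaction, lost 8 of these calls unadjusted and 35 after adjustment. The cause of these changes was not tested.

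Samples with 1 replicate number deviated together in 1 of 18 comparisons, so the numbers were not taken as pairs; the replicate block gave 1, 7, 1, 4, 9 and 2 in the same order, without the calls of MADS57 in IR29 at 2 h and MADS27 in LTH at 48 h. The intensities carry no detection call or depth, so a level near 3.16 is only dim, not absent.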
